A study of Mus musculus with 10 samples.

Results

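The hypoxia and glycolysis genes described here are 10 genes, *Vegfa*, *Slc2a1*, *Hk2*, *Pfkp*, *Pgk1*, *Ldha*, *Bnip3*, *Adm*, *Ankrd37* and *Car9*, chosen by name from the 47069 genes of an RNA-seq count table of mouse intestinal organoids, and 10 of 10 were found and passed the filter on low counts. Organoids from mice carrying Lgr5-EGFP-CreERT2 and Ppp2r1a flox/flox were grown for 50 days in Matrigel with EGF, Noggin and R-spondin 1, and the floxed alleles and the Cre were shared by every group; the labels give the strain as C57BL/6. There were 10 libraries, 2 in each of 5 groups: saline (control), the carcinogen 7,12-dimethylbenzanthracene (DMBA, whose label also reads long), tamoxifen in a set labelled short (TAM short), tamoxifen in a set labelled long (TAM long), and DMBA with tamoxifen (DMBA+TAM). Nothing states what the words short and long refer to. The libraries of the TAM short and TAM long sets are named DSS_S and DSS_L and their labels call the agent dosage-sensitive TAM; DSS is also a common short form of another agent, dextran sulfate sodium, so that these 4 libraries received tamoxifen rests on the labels alone, and TAM in a group name means what the label says. Tamoxifen activates the Cre, which deletes part of *Ppp2r1a*, the scaffold subunit A alpha of the phosphatase PP2A, and the Cre is driven by *Lgr5*, which marks crypt stem cells. Nothing states that the 2 libraries of a group came from separate mice or cultures, so the p-values measure only the spread between these libraries, and the age of the mice from which the organoids came is not given in the sources used here.

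Cells short of oxygen stabilise HIF-1 alpha and HIF-2 alpha, which pair with ARNT and bind a short core motif near their target genes, while prolyl hydroxylases and VHL remove them when oxygen is present. The targets bring in glucose and break it down to lactate, call in blood vessels, export acid and clear mitochondria. Several glycolysis genes also follow growth signals and differentiation in the gut epithelium, so the same genes are read both as a hypoxia and as a metabolic programme.

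The motif was searched in the promoters of the 10 genes because it is the one sequence feature the family is known to share. Promoter windows of 300 bases, 250 before and 50 after each RefSeq transcription start on GRCm38.p6, were read on both strands for ACGTG and GCGTG, the 2 forms of the core, whose matches on opposite strands can share bases. All 10 genes had a window, 12 windows in all, and a gene was counted with a form if any of its windows held it. ACGTG was found in 8 of the 10 genes, beside 21.8% of the 27025 genes with a window, and GCGTG in 7 of them, beside 35.2%. GC content was 56% to 71.7% in these windows, above the median of 52.7% over all 32851 windows, and its part in the motif counts was not tested. The match nearest to the start is given for each gene, 10 bases on each side, on the strand of the gene with the motif or its reverse complement (CACGT or CACGC) in capitals; ACGTG is shown where there was one and GCGTG for *Pfkp* and *Adm*, which had none.
Vegfa: agtgcgtgccCACGTcagagagcaa
Slc2a1: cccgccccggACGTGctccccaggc
Hk2: tgagcacatcCACGTcactgtccgg
Pfkp: ctcgggcgggGCGTGggcggctcct
Pgk1: atggaagtagCACGTctcactagtc
Ldha: tgggttcccgCACGTccgctgggct
Bnip3: cacgcgccgcACGTGccacacgctc
Adm: caaatctgacCACGCccaccgtccg
Ankrd37: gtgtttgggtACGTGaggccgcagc
Car9: atttccgatgCACGTacagcccgtc

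The first base in capitals lay 211 bases before the start in *Vegfa* (chr17:46025360-46025384, minus strand, a start inside the listed gene), 36 in *Slc2a1* (chr4:119108699-119108723), 52 in *Hk2* (chr6:82774492-82774516, minus strand), 23 in *Pfkp* (chr13:6648780-6648804, minus strand) and 131 in *Pgk1* (chrX:106186959-106186983). It lay 34 bases before the start in *Ldha* (chr7:46845760-46845784, likewise a start inside the listed gene), 107 in *Bnip3* (chr7:138909599-138909623, minus strand), 54 in *Adm* (chr7:110627593-110627617), 6 in *Ankrd37* (chr8:45999842-45999866, minus strand) and 18 in *Car9* (chr4:43506998-43507022). The other window of *Vegfa*, at the start of the listed gene (chr17:46032328-46032627, minus strand), held neither ACGTG nor GCGTG. A match is a description of letters, not a measured binding site, and the genes that carry one moved in different directions in the comparisons that follow.

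DMBA+TAM libraries held 1592366 and 1915270 counts and the other 8 held 8828247 to 10923673, so 3 counts are worth 1.58 and 1.32 normalized CPM in DMBA+TAM and 0.259 to 0.379 elsewhere (CPM, the share of a library's counts on a common scale, here with the TMM factors of edgeR). The mitochondrial share of counts was 1.627% and 1.724% in DMBA+TAM and 2.516% to 4.147% elsewhere. The 8 proliferation markers summed to 968 and 874 CPM in control and 697 and 668 in TAM short. In DMBA, TAM long and DMBA+TAM they were at 236 to 380. Marker sums of several cell types also differed between the groups. The summed level of 10 epithelial markers was 13400 to 22900 CPM in the other 8 libraries and 33.3 and 22.5 in DMBA+TAM, where 3 of 10 markers had over 3 counts in each library and *Epcam* and *Vil1* had 1.58 CPM or less. The 10 fibroblast markers summed to 32700 and 33500 CPM in DMBA+TAM against 666 to 2340 elsewhere, the 8 macrophage and neutrophil markers to 2190 and 2090 against 83.2 to 130, the 6 endothelial markers to 612 and 605 against 59.2 to 115, the 6 fat cell markers to 2650 and 1480 against 9.53 to 179, and the 8 skeletal muscle markers to 8890 in DMBA+TAM replicate 2 alone against 7.8 to 21.6 in the other 9. Small intestine markers (10 genes) summed to 41100 and 45500 CPM in control, 15300 and 11800 in TAM short and 468 to 1070 in DMBA and TAM long, where colon markers (6 genes) were at 5400 to 16600 against 207 to 360 in control and TAM short; smooth muscle markers (6 genes) were at 7160 to 12800 in DMBA and TAM long and 1210 to 2280 in the other 6 libraries. The letter before the replicate number in the library names follows the same split. It is S for control (NS) and TAM short (DSS_S) and L for DMBA (NL) and TAM long (DSS_L). The DMBA+TAM libraries are named Lgr5 with no such letter. TAM short against control and TAM long against DMBA compare groups of the same letter, though small intestine markers differed between TAM short and control. In DMBA+TAM small intestine markers summed to 7.92 and 11.5 CPM and colon markers to 15.3 and 11.0. There 1 of the 10 and 2 of the 6 had over 3 counts in each library, so these markers do not show a gut segment. Between the S and L groups treatment and gut segment cannot be told apart. Against DMBA+TAM, treatment cannot be told apart from the marker differences given above, and the gut segment of DMBA+TAM is not known. In bulk RNA, fewer cells of a type and less RNA per cell cannot be told apart either. *Ppp2r1a* had 123 to 169 CPM in all libraries, and counts summed over all of its exons do not check a deletion of some of them.

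**Figure D1:**
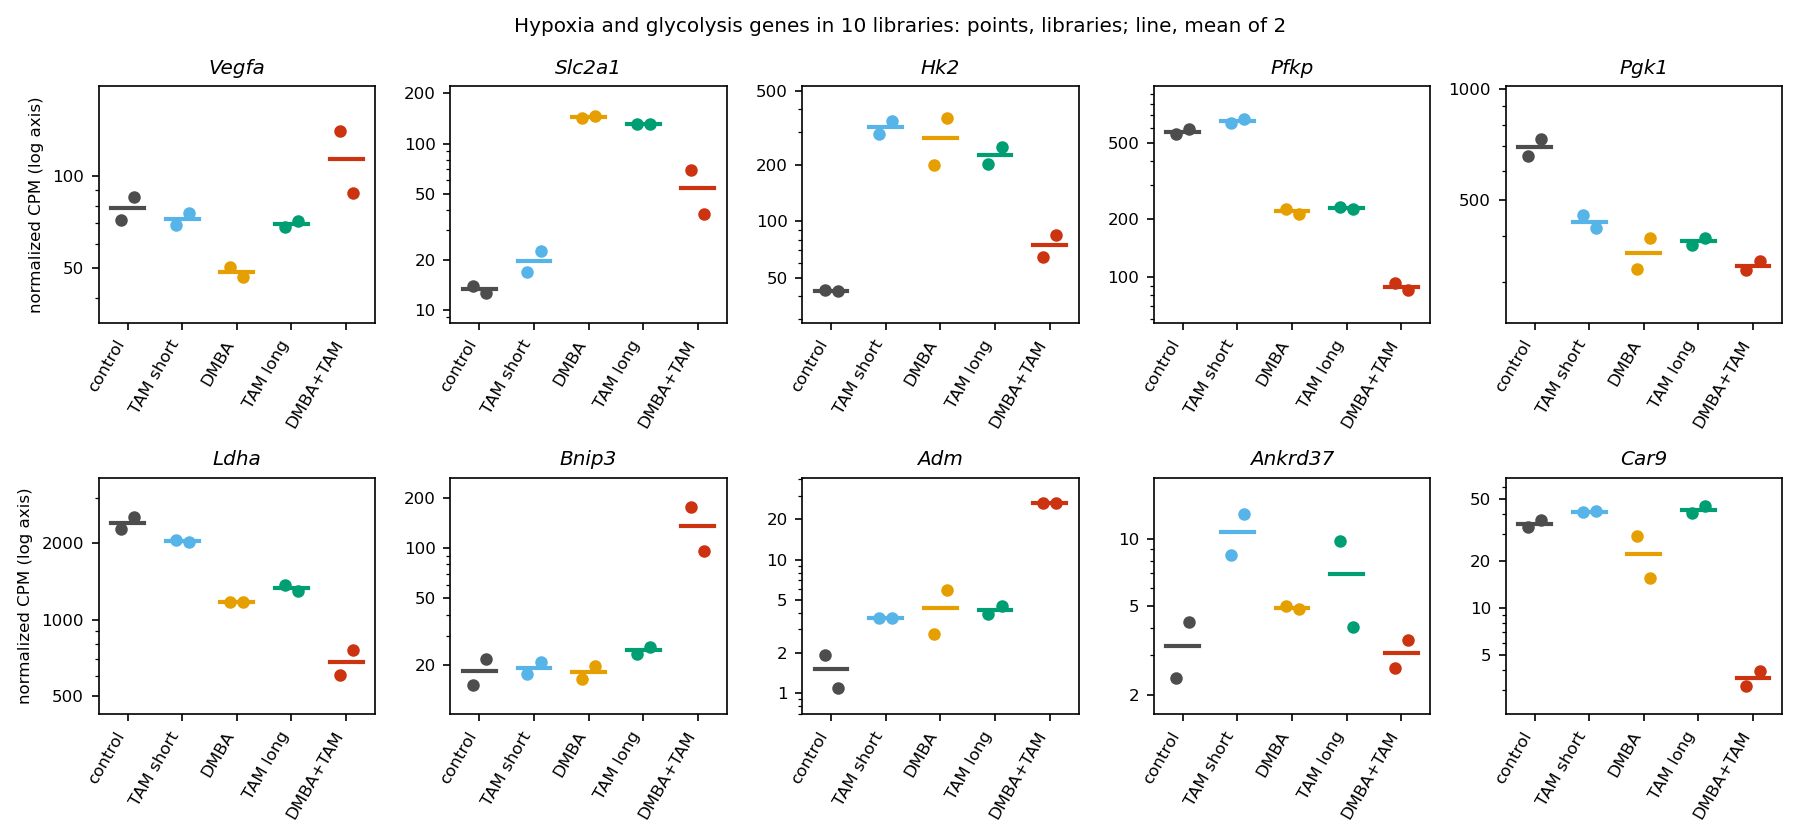
Normalized CPM (log axis, own scale per gene) of the 10 genes in each library, grouped by treatment; points are libraries and lines the means of 2. *Bnip3* and *Adm* are highest in both DMBA+TAM libraries, *Car9* and *Pfkp* lowest there, and *Slc2a1* and *Pfkp* separate DMBA and TAM long from control and TAM short.

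*Slc2a1* encodes GLUT1, the transporter that brings glucose into most cells. It had 14.0 and 12.6 CPM in the control libraries, 16.8 and 22.6 with TAM short, 143 and 147 with DMBA, 131 and 131 with TAM long and 69.7 and 37.9 with DMBA+TAM. No 2 groups overlapped, with DMBA and TAM long highest, DMBA+TAM between and control lowest. The level of *Slc2a1* was 10.9-fold higher in DMBA than in control (log2 fold change 3.44 ± 0.24 SE, adjusted p = 5.04e-06, from the quasi-likelihood test of edgeR, Benjamini-Hochberg adjusted over all genes, as for every adjusted p here) and 9.82-fold higher in TAM long (adjusted p = 6.23e-06). It rose with DMBA+TAM (log2 fold change 2.00 ± 0.25, adjusted p = 7e-05), and against DMBA and TAM long its log2 fold changes were -1.44 ± 0.23 and -1.30 ± 0.23 (adjusted p = 0.000534 and 0.00101). In TAM short against control the log2 fold change of *Slc2a1* was 0.56 ± 0.24 and did not pass the test (adjusted p = 0.163), but it did with no filter on low counts (0.0198) and with only the libraries of the 2 groups (0.0248).

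*Hk2*, the inducible hexokinase that traps glucose as glucose 6-phosphate, had 42.7 and 42.5 CPM in the control libraries, 295 and 346 with TAM short, 200 and 358 with DMBA, 203 and 249 with TAM long and 64.9 and 84.1 with DMBA+TAM. Control was lowest in both libraries, DMBA+TAM was next, and the ranges of DMBA and those of TAM short and TAM long overlapped. *Hk2* passed the test against control in every treated group, rising by 2.91 ± 0.26 with TAM short (adjusted p = 0.000141), 2.71 ± 0.26 with DMBA (3.34e-05), 2.40 ± 0.26 with TAM long (6.72e-05) and 0.81 ± 0.26 with DMBA+TAM (0.0208) on the log2 scale, and these 4 comparisons share the control libraries. The rise of *Hk2* in DMBA+TAM was lost without control replicate 1, control replicate 2 or DMBA+TAM replicate 2, with log2 fold changes of 0.78, 0.77 and 0.58.

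*Pfkp*, the platelet-type phosphofructokinase of the committed step of glycolysis, had 557 and 588 CPM in the control libraries, 635 and 670 with TAM short, 227 and 213 with DMBA, 232 and 226 with TAM long and 92.4 and 85.0 with DMBA+TAM. DMBA and TAM long overlapped and no other pair of groups did. The log2 fold changes of *Pfkp* were -1.38 ± 0.11 with DMBA (adjusted p = 1.22e-05), -1.32 ± 0.11 with TAM long (1.59e-05) and -2.69 ± 0.12 with DMBA+TAM (6.45e-08), a level 6.46-fold lower than in control. In TAM short its log2 fold change was 0.19 ± 0.11 (adjusted p = 0.302). *Pgk1*, which makes ATP from 1,3-bisphosphoglycerate, had 657 and 734 CPM in the control libraries, 455 and 420 with TAM short, 326 and 394 with DMBA, 379 and 394 with TAM long and 323 and 341 with DMBA+TAM. Both control libraries of *Pgk1* lay above all 8 others, and its log2 fold changes ran from -0.67 ± 0.13 in TAM short (adjusted p = 0.0092) to -1.07 ± 0.13 in DMBA+TAM (6.52e-05). The fall in TAM short was lost without control replicate 2, TAM short replicate 1 or TAM short replicate 2.

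*Ldha*, the lactate dehydrogenase subunit that favours lactate, was the most abundant of the 10 per length of transcript, at 1360 CPM per kb of listed gene length in control against 381 for *Pgk1* and 1.08 for *Adm*. Its levels were 2270 and 2520 CPM in the control libraries, 2060 and 2020 with TAM short, 1170 and 1170 with DMBA, 1370 and 1290 with TAM long and 608 and 760 with DMBA+TAM. No 2 groups overlapped, and DMBA+TAM was lowest. The log2 fold changes of *Ldha* were -1.03 ± 0.15 with DMBA, -0.85 ± 0.15 with TAM long and -1.81 ± 0.15 with DMBA+TAM (adjusted p = 0.000363, 0.00118 and 3.39e-06), and its -0.23 ± 0.14 in TAM short did not pass (adjusted p = 0.339). Pseudogenes named after *Ldha* (2) and *Pgk1* (3) are annotated in GENCODE M21, and how reads shared with them were counted is not given in the sources used here.

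*Vegfa*, the main signal for blood vessel growth, had 71.7 and 85.2 CPM in the control libraries, 69.4 and 75.5 with TAM short, 50.5 and 46.6 with DMBA, 68.2 and 71.3 with TAM long and 140 and 88.1 with DMBA+TAM. DMBA was lowest and DMBA+TAM highest, while control and TAM short overlapped, as did TAM short and TAM long. *Vegfa* fell by 0.69 ± 0.19 on the log2 scale in DMBA (adjusted p = 0.0125), and rose by 0.53 ± 0.19 in DMBA+TAM (0.0315), a 1.45-fold difference. The fall in DMBA was lost with scaling by library size alone (-0.37, adjusted p = 0.141), with both limma fits on FPKM, with the counts thinned to the smallest library and without control replicate 2. The rise of *Vegfa* rests on DMBA+TAM replicate 1: without it the log2 fold change was 0.14 and the call was lost, as it also was without either control library. *Adm*, which encodes adrenomedullin, a peptide that widens vessels, had 1.92 and 1.08 CPM in the control libraries, 3.62 and 3.66 with TAM short, 2.77 and 5.95 with DMBA, 3.88 and 4.52 with TAM long and 26.4 and 26.4 with DMBA+TAM, from 17 and 9 counts in control and 50 and 60 in DMBA+TAM. Both DMBA+TAM libraries lay above all others. *Adm* was 17.3-fold higher there than in control, with a log2 fold change of 4.11 ± 0.42 (adjusted p = 1.39e-05). Under other settings that log2 value ran from 3.74 to 5.16. *Adm* also rose by 1.50 ± 0.42 in DMBA and 1.46 ± 0.42 in TAM long (adjusted p = 0.0148 and 0.0168). In TAM short *Adm* had a log2 fold change of 1.26 ± 0.43 that did not pass (adjusted p = 0.0825), but did with no filter, with only the libraries of the 2 groups and with limma on log2(FPKM + 0.1). Both of these smaller rises of *Adm* were lost with the counts thinned to the smallest library (adjusted p = 0.0648 and 0.229) and without control replicate 2 (0.115 and 0.129), that in DMBA also without DMBA replicate 2 (0.106) or with only the libraries of its 2 groups (0.0643), and that in TAM long also without TAM long replicate 2 (0.0781).

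*Bnip3*, a BH3-only protein that targets mitochondria for removal, had 15.3 and 21.8 CPM in the control libraries, 17.6 and 20.9 with TAM short, 16.5 and 19.8 with DMBA, 23.4 and 25.7 with TAM long and 175 and 96.0 with DMBA+TAM. The first 3 of these groups overlapped and both DMBA+TAM libraries stood above every other library. *Bnip3* was 7.30-fold higher in DMBA+TAM than in control (2.87 ± 0.28 on the log2 scale, adjusted p = 1.11e-05), and its log2 fold changes against DMBA, TAM long and TAM short in turn were 2.90, 2.46 and 2.81 (adjusted p = 1.5e-05, 3.78e-05 and 1.34e-05). No other comparison of *Bnip3* passed, though that of TAM long with control (0.40, adjusted p = 0.249) did with library size alone (0.73, adjusted p = 0.0439), and its difference from control in DMBA was -0.03 ± 0.27. Of the exonic bases of *Bnip3*, 22.3% are shared with the antisense gene *Gm45507*, and whether the reads were counted by strand is not given in the sources used here.

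*Car9*, a carbonic anhydrase on the cell surface, went the other way. Its levels were 32.9 and 36.6 CPM in the control libraries, 41.1 and 41.9 with TAM short, 29.0 and 15.6 with DMBA, 40.4 and 45.1 with TAM long and 3.17 and 3.97 with DMBA+TAM, the last from 6 and 9 counts. Both DMBA+TAM libraries were below the other 8. *Car9* was 9.62-fold lower in DMBA+TAM than in control (-3.27 ± 0.37 on the log2 scale, adjusted p = 3e-05), and its other differences from control did not pass (adjusted p = 0.0511 for DMBA, 0.32 for TAM long and 0.523 for TAM short), of which that in DMBA did with no filter, with the replicate block and without DMBA replicate 1. *Ankrd37*, an ankyrin repeat protein known as a HIF target, was low throughout, with 2.37 and 4.22 CPM in the control libraries, 8.47 and 13.0 with TAM short, 5.00 and 4.83 with DMBA, 9.83 and 4.03 with TAM long and 2.64 and 3.52 with DMBA+TAM. The groups of *Ankrd37* overlapped except that TAM short was above control, DMBA and DMBA+TAM, DMBA was above control and DMBA+TAM, and TAM long was above DMBA+TAM. *Ankrd37* passed against control in TAM short (log2 fold change 1.70 ± 0.45, adjusted p = 0.0319), and this call was lost when any 1 of the control or TAM short libraries was left out (adjusted p = 0.0647 to 0.232) and with thinned counts (0.249). In TAM long its 1.08 ± 0.45 did not pass (adjusted p = 0.0734) but did with library size alone (0.0281), with no filter (0.00548), with limma on log2(FPKM + 1) and log2(FPKM + 0.1) (0.0468 and 0.0462) and without TAM long replicate 2 (0.0175), and TAM long against TAM short was not called (adjusted p = 0.251). *Ankrd37* shares 22.7% of its exonic bases with *Lrp2bp* on the opposite strand.

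**Figure D2:**
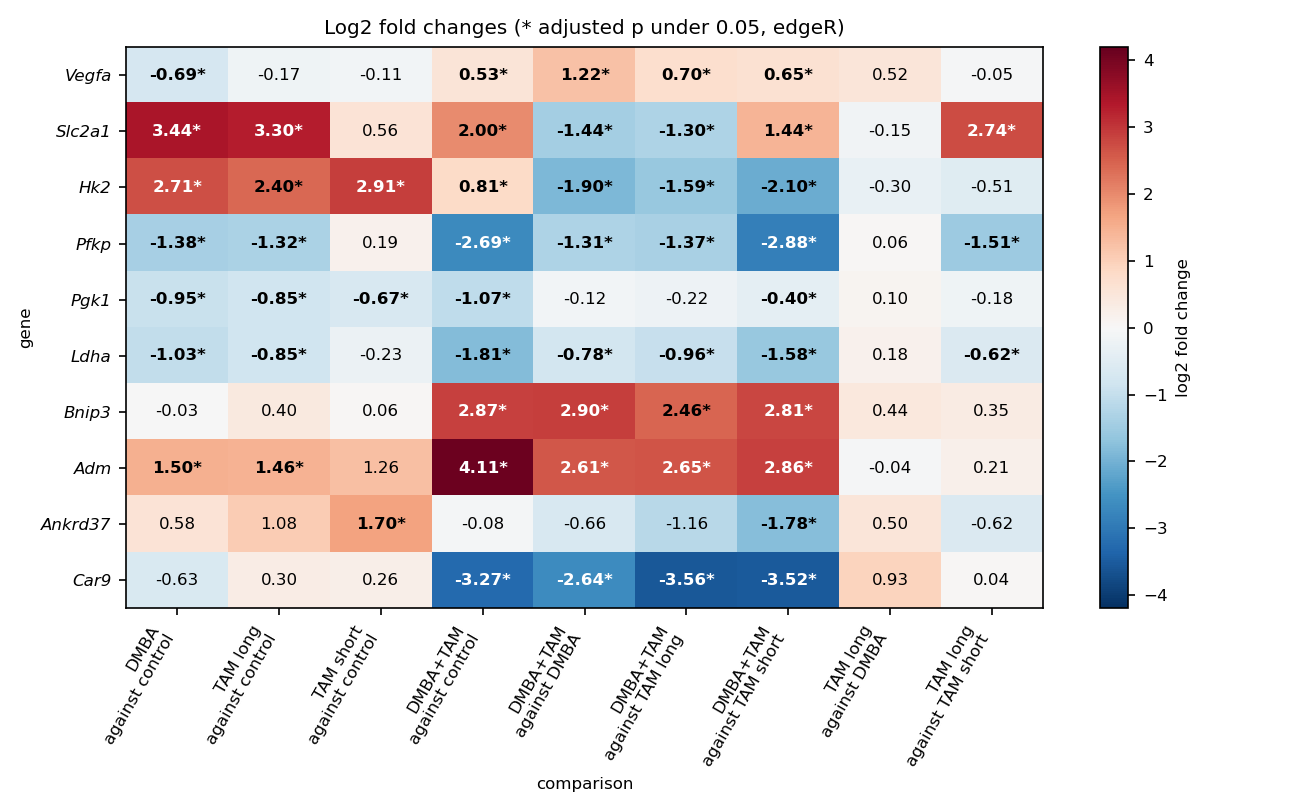
Log2 fold changes of the 10 genes (vertical) in 9 comparisons (horizontal), coloured from blue (lower) to red (higher); bold values with a star had an adjusted p under 0.05. The DMBA+TAM columns hold rises of *Bnip3* and *Adm* beside falls of *Pfkp*, *Ldha* and *Car9*, and the column of TAM long against DMBA holds no star.

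Counted together, 3 of the 10 genes rose and 4 fell in DMBA against control, beside 47.8% of all 16179 genes tested that were called (24.5% higher, 23.3% lower). For TAM long, 3 rose and 3 fell beside 46% of all genes (23.2% higher, 22.8% lower), and for TAM short 2 rose and 1 fell beside 14.3% (6.52% higher, 7.8% lower). In DMBA+TAM, 5 rose (*Vegfa*, *Slc2a1*, *Hk2*, *Bnip3*, *Adm*) and 4 fell (*Pfkp*, *Pgk1*, *Ldha*, *Car9*) beside 64.3% (29% higher, 35.3% lower). With so many of all genes called, the number of the 10 called says little by itself. TAM short, with the smallest share, had 3 of the 10, of which *Pgk1* and *Ankrd37* depended on single libraries, as given above. The median log2 fold change of the 10 in DMBA, TAM long, TAM short and DMBA+TAM was -0.33, 0.35, 0.22 and 0.22, beside 0.07, 0.05, -0.04 and -0.17 over all genes. With scaling by library size alone the medians of the 10 were -0.01, 0.67, 0.31 and 0.73 and those over all genes 0.377, 0.37, 0.038 and 0.312, the genes called in DMBA+TAM were 38.7% higher and 23.2% lower, in DMBA 34.5% and 14%, and in TAM long 34.2% and 13.3% and in TAM short 7.91% and 5.59%, while of the 10 genes 5 were higher and 4 lower in DMBA+TAM, 3 and 3 in DMBA, 5 and 3 in TAM long and 2 and 1 in TAM short.

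Against DMBA, TAM long and TAM short in turn, DMBA+TAM had 3, 3 and 4 genes higher and 5, 5 and 6 lower, beside 55.1%, 55.2% and 63.1% of all genes called (25.2%, 25.3% and 29.3% higher, 29.9%, 29.9% and 33.8% lower). With library size alone 29.3%, 28.8% and 37.2% of all genes were higher and 24.2%, 24.3% and 23.3% lower, and of the 10 genes 3, 3 and 4 were higher and 5, 5 and 4 lower. *Vegfa*, *Bnip3* and *Adm* were higher and *Hk2*, *Pfkp*, *Ldha* and *Car9* lower against each of these 3 groups, which are compared with the same DMBA+TAM libraries. The call of *Vegfa* against DMBA (1.22, adjusted p = 0.000447) was lost under none of the other settings, but those against TAM long and TAM short depended on single libraries. Against TAM long (0.70, adjusted p = 0.0105) the call was lost without TAM long replicate 1 (0.65) or DMBA+TAM replicate 1 (0.33). Against TAM short (0.65, adjusted p = 0.0134) it was lost without TAM short replicate 1 (0.56), TAM short replicate 2 (0.68) or DMBA+TAM replicate 1 (0.26). *Slc2a1* was lower against DMBA and TAM long and higher against TAM short (log2 fold change 1.44 ± 0.25, adjusted p = 0.000595). For *Pgk1* the fall against TAM short was 0.40 on the log2 scale with TMM scaling (adjusted p = 0.0247) and 0.01 higher with library size alone, so its direction there rests on the scaling, and the call was also lost with thinned counts and without TAM short replicate 1 or DMBA+TAM replicate 1. *Ankrd37* was lower against TAM short (log2 fold change -1.78 ± 0.57, adjusted p = 0.0199), a call that was lost with library size alone (adjusted p = 0.0636) and without TAM short replicate 2 (0.0837), DMBA+TAM replicate 1 (0.0995) or DMBA+TAM replicate 2 (0.0703). The fibroblast, macrophage and epithelial marker sums given above moved in all of these comparisons, and their part in the changes of the 10 genes was not tested.

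TAM long against DMBA had the fewest calls over all genes of the 9 comparisons, and 0 of the 10 genes passed edgeR's threshold, beside 2.7% of all genes (1.24% higher, 1.46% lower), 2 (*Vegfa* and *Car9*) had an unadjusted p under 0.05, and DESeq2 called 1 (*Car9*). The nearest was *Car9*, with a log2 fold change of 0.93 ± 0.23 (adjusted p = 0.0683), followed by *Vegfa* with 0.52 ± 0.19 (0.162). A value past neither threshold does not show that the groups were alike. TAM long against TAM short had 1 gene higher and 2 lower, beside 42.2% of all genes (22% higher, 20.3% lower; 29.3% and 12.6% with library size alone), namely *Slc2a1* (log2 fold change 2.74 ± 0.23, adjusted p = 2.64e-05), *Pfkp* (-1.51 ± 0.11, 1.32e-05) and *Ldha* (-0.62 ± 0.15, 0.00742). The call of *Ldha* was lost with library size alone (-0.39, adjusted p = 0.0532), with limma on log2(FPKM + 0.1) and without TAM short replicate 1 or TAM long replicate 2 (0.0513 and 0.0516). Small intestine and colon markers separate the same 2 groups, and their part in these differences was not tested.

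The genes that sense oxygen were described from a list of 10. In DMBA+TAM against control, *Hif1a* and *Epas1*, which encode HIF-1 alpha and HIF-2 alpha, rose by 1.03 ± 0.26 and 1.04 ± 0.12 on the log2 scale (adjusted p = 0.00592 and 3.15e-05), *Arnt*, their partner, by 0.56 ± 0.12 and *Egln1*, a prolyl hydroxylase, by 0.73 ± 0.12. *Egln2* and *Egln3*, the other prolyl hydroxylases, fell by 0.73 ± 0.11 and 2.10 ± 0.32 (adjusted p = 0.00021 and 0.000238), and *Egln3* is itself known as a HIF target; the fall of *Egln2* was lost with library size alone (-0.23, adjusted p = 0.111). *Vhl*, *Hif1an*, *Hif3a* and *Arnt2* did not pass, with log2 values of 0.38, -0.53, -0.06 and 1.15, and *Hif3a* was at 1.06 and 0.441 CPM in DMBA+TAM, under the level of 3 counts. *Hif1a* had 204 and 188 CPM in DMBA+TAM and 65.8 to 175 in the other 8 libraries, so both were above the rest. HIF proteins are controlled largely by degradation, which these RNA levels do not measure.

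*Epas1* rose in all 4 treated groups, by 0.44 (DMBA), 0.75 (TAM long) and 0.56 (TAM short) on the log2 scale besides the rise in DMBA+TAM. *Egln1* also rose in DMBA and TAM long (0.42 and 0.55), *Hif3a* in DMBA (2.35 ± 0.58, adjusted p = 0.00783; 1.36 ± 0.60 in TAM long, adjusted p = 0.0898, and the difference of the 2 groups did not pass, adjusted p = 0.313), and *Egln2* and *Egln3* fell in TAM long by 0.32 and 0.89, of which neither passed with library size alone (0.00 and -0.58). In all, 3 of the 10 rose and 0 fell with DMBA, and 2 rose and 2 fell with TAM long. With TAM short 1 rose and 0 fell, and with DMBA+TAM 4 rose and 2 fell. Of all genes, 47.8%, 46%, 14.3% and 64.3% were called in these comparisons. With library size alone the numbers were 6 and 0, 4 and 0, 1 and 0, and 6 and 1. Of all genes, 34.5%, 34.2%, 7.91% and 38.7% were then higher and 14%, 13.3%, 5.59% and 23.2% lower.

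Among 24 other genes known as hypoxia targets, 11 rose and 6 fell in DMBA+TAM against control, beside 29% of all genes higher and 35.3% lower, with a median log2 fold change of 0.34 beside -0.17 over all genes. With library size alone 12 rose and 4 fell, with a median of 0.84 beside 0.312, and 38.7% of all genes were higher and 23.2% lower. Among the largest rises were those of *Lox*, which cross-links collagen (3.28 and 2.77 CPM in control, 1290 and 1140 in DMBA+TAM), and *Hmox1*, which degrades haem (2.15 and 4.58 against 132 and 137). Their log2 fold changes were 8.64 and 5.33 (adjusted p = 1.13e-08 and 1.31e-07). *Lox* is also made by fibroblasts and *Hmox1* by macrophages, cell types whose markers rose in the same libraries, and that part was not tested. The largest falls were of the carbonic anhydrase *Car12* (log2 fold change -3.34), the transferrin receptor *Tfrc* (-3.01) and *Mxi1*, a partner of MAX (-2.33). The carbonic anhydrase *Car12* had 3.17 and 2.64 CPM in DMBA+TAM, close to the 3.17 and 3.97 of *Car9*.

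In TAM long against control, 15 of the 24 rose and 5 fell (median 0.76 beside 0.05), and in DMBA 12 rose and 5 fell (0.82 beside 0.07), where 23.2% and 24.5% of all genes were higher and 22.8% and 23.3% lower. With library size alone the numbers were 16 and 4 in TAM long and 15 and 5 in DMBA (medians 1.09 and 1.15 beside 0.37 and 0.377). Of all genes, 34.2% and 34.5% were then higher and 13.3% and 14% lower. *Ak4*, a mitochondrial adenylate kinase, had 3.62 and 2.89 CPM in control and 127 and 78.6 in TAM long (log2 fold change 4.98 ± 0.32), and *Higd1a*, a mitochondrial inner membrane protein, 95.0 and 110 against 505 and 386 (2.12 ± 0.22). The lipoprotein lipase inhibitor *Angptl4* fell from 64.0 and 56.6 CPM to 4.57 and 1.97 in TAM long (-4.18 ± 0.34), and the regulators of phosphofructokinase *Pfkfb3* and *Pfkfb4* fell by 2.08 and 1.64. Against control *Angptl4* and *Pfkfb3* rose in DMBA+TAM, by 1.40 ± 0.28 and 1.61 ± 0.14 on the log2 scale. In TAM short 5 of the 24 rose and 2 fell, with a median of 0.13 beside -0.04 and 6.52% of all genes higher and 7.8% lower.

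**Figure D3:**
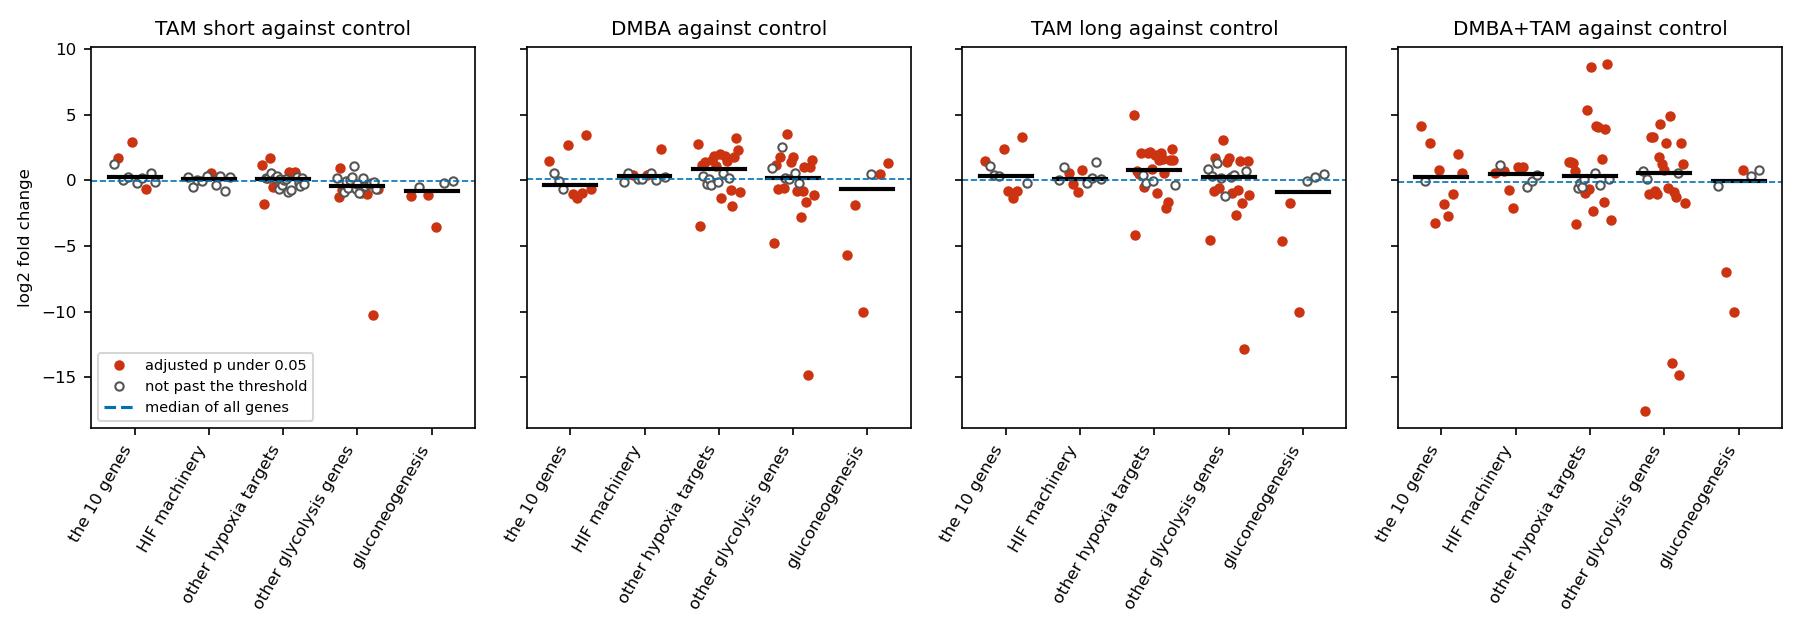
Log2 fold change against control (vertical axis) of each gene in 5 lists (horizontal), 1 panel for each treated group; filled points had an adjusted p under 0.05, open points did not, the black bars are list medians and the dashed line is the median of all genes. Both directions occur in most lists, and points below -9 are fitted values of genes with few or no counts in the treated group, so their depth is not a size.

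Of the other 24 glycolysis genes, 23 passed the filter on low counts and were tested, and they split in both directions. In DMBA+TAM against control 10 rose and 10 fell, with DMBA 8 and 9, with TAM long 6 and 9, and with TAM short 1 and 6, beside 64.3%, 47.8%, 46% and 14.3% of all genes called. With library size alone 12 rose and 8 fell in DMBA+TAM, and 10 and 7 in DMBA. In TAM long the numbers were then 9 and 8, and in TAM short 1 and 6. Of all genes, 38.7%, 34.5%, 34.2% and 7.91% were higher with that scaling and 23.2%, 14%, 13.3% and 5.59% lower, in the same order. The falls of *Gapdh* and *Pgam1* in DMBA+TAM were not called with that scaling (-0.33 and -0.11). Among genes averaging 50 counts or more, the largest rises in DMBA+TAM were of the enolases *Eno3* (3.32 ± 1.09) and *Eno2* (3.26 ± 0.27) and of the muscle phosphofructokinase *Pfkm* (2.82 ± 0.73). *Eno3* had 6.33 and 312 CPM and *Pfkm* 21.1 and 226 in the 2 DMBA+TAM libraries, and the skeletal muscle marker sum was 7.92 and 8890 in the same order. In replicate 1 *Eno3* was below both control libraries (15.9 and 16.1 CPM), while *Eno2*, with 37.0 and 23.8 CPM, was above all other libraries in both.

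Among the largest falls were those of genes known from the absorptive gut and the liver, and the small intestine markers fell in the same libraries. *Slc2a2*, which encodes GLUT2, had 397 and 514 CPM in control and 0 in both DMBA+TAM libraries, at least 314-fold lower against a floor of 3 counts per library. *Pklr*, the liver pyruvate kinase, had 220 and 264 CPM in control and 0 in DMBA+TAM, at least 167-fold lower. In TAM long *Slc2a2* was at least 1640-fold lower, with 0 and 0.0983 CPM, and *Pklr* fell by 2.67 on the log2 scale. The hexokinase *Hk1* rose by 3.06 ± 0.14 in TAM long (18.3 and 19.4 CPM in control, 136 and 177 in TAM long), *Eno2* by 1.73 ± 0.26 and *Pfkl*, the liver-type phosphofructokinase, by 1.69 ± 0.17.

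Of 6 gluconeogenesis genes, 1 rose and 2 fell in DMBA+TAM, 2 rose and 3 fell in DMBA, and 0 rose and 3 fell in each tamoxifen set, beside the same shares of all genes called. With library size alone 3 rose and 2 fell in DMBA+TAM, and 3 rose and 3 fell in DMBA. In TAM long 2 then rose and 3 fell, and in TAM short 0 rose and 1 fell. The shares of all genes with that scaling are given above. *Pck1*, the cytosolic phosphoenolpyruvate carboxykinase, rose by 0.82 ± 0.27 in DMBA+TAM (adjusted p = 0.0236), with 106 and 139 CPM in control and 276 and 159 in DMBA+TAM. With TAM short it was 11.7-fold lower than in control, at 10.8 and 10.1 CPM (log2 fold change -3.55 ± 0.31, adjusted p = 0.000119). *Pck1* is also a gene of fat cells, whose markers were higher in replicate 1 than in replicate 2 as well, and their part was not tested. *Fbp2*, the muscle-type fructose bisphosphatase, was at 297 and 315 CPM in control and 0 and 4.41 in DMBA+TAM, and fell by 1.73 ± 0.29 on the log2 scale in TAM long.

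Within enzyme families the share of each form was computed from CPM per kb of listed length. *Slc2a1* made up 4.67% ± 1.09 (SD, n = 2) of *Slc2a1* to *Slc2a4* in control, where *Slc2a2* was 91.5% ± 1.84, and 83.3% ± 5.55 with DMBA, 82.1% ± 1.22 with TAM long, 72.5% ± 14.4 with TAM short and 60.3% ± 12.9 with DMBA+TAM. Behind the share in TAM short, the level of *Slc2a1* per kb was 4.09 in control and 6.05 in TAM short, while the group mean of *Slc2a2* was 456 CPM in control and 0.339 in TAM short. The neuronal transporter *Slc2a3* was 0.605% in control and 13.9% in DMBA+TAM, and its CPM rose there (log2 fold change 2.83 ± 0.35, adjusted p = 5.41e-05).

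*Hk2* was 62.1% ± 1.17 of *Hk1* to *Hk3* in control, 90.6% ± 1.10 with TAM short, 49.3% ± 10.2 with DMBA, 52.8% ± 1.03 with TAM long and 38.4% ± 5.46 with DMBA+TAM. *Hk1* and *Hk2* rose together in DMBA and TAM long, whereas *Hk1* had a log2 fold change of 0.28 ± 0.14 in TAM short (adjusted p = 0.226). *Hk3*, the hexokinase of white blood cells, was 17.7% ± 1.47 in DMBA+TAM and 2.48% or less in the other groups, and the macrophage and neutrophil markers were highest in the same libraries. *Pfkp* was 84.1% ± 0.0332 of the phosphofructokinases in control and 88.9% ± 0.278 in TAM short, but 41.4% ± 4.25 with DMBA, 44.0% ± 0.0851 with TAM long and 23.8% ± 12.7 with DMBA+TAM. *Pfkl* took the largest share in DMBA and TAM long (50.8% and 49.4%), and in DMBA+TAM *Pfkm* was 12.1% in replicate 1 and 63.9% in replicate 2. *Ldha* stayed between 95.9% and 99.6% of *Ldha* and *Ldhb* in all groups, although *Ldhb* rose in DMBA, TAM long and DMBA+TAM (log2 fold changes 1.43, 1.36 and 1.23). The shares depend on the lengths: the authors' FPKM, which uses other ones, gave 79.1% for *Slc2a1* and 43.8% for *Pfkp* in DMBA, but in DMBA+TAM 10.4% for *Hk3*, 22.2% for *Slc2a3* and 22.0% for *Pfkm*, whose 2 libraries are given above. With FPKM *Hk2* was also below *Hk1* in TAM long (44.3% and 55.6%).

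**Figure D4:**
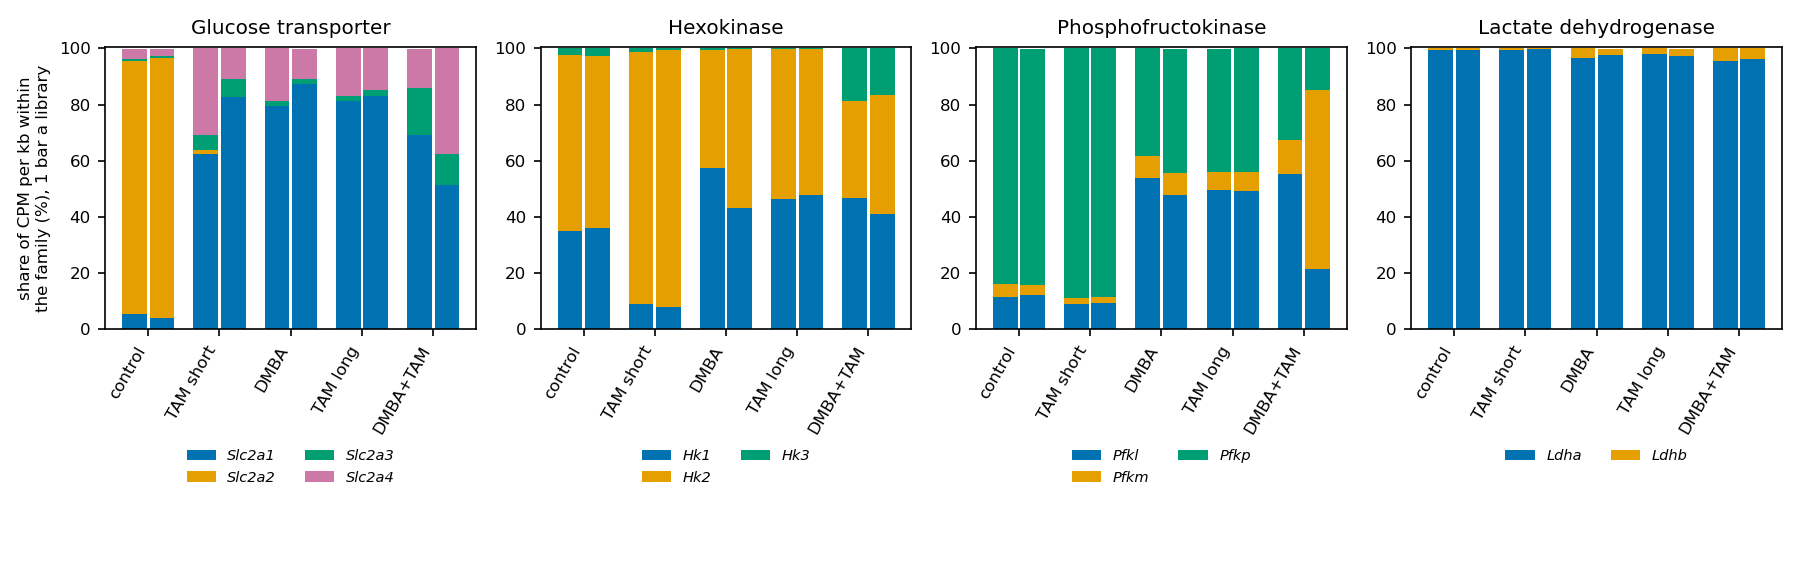
Share of each gene in its family (vertical axis, percent of CPM per kb of listed length), 1 stacked bar a library, for glucose transporters, hexokinases, phosphofructokinases and lactate dehydrogenases. *Slc2a2* fills most of the control bars and is nearly absent elsewhere, *Pfkp* gives way to *Pfkl* in DMBA and TAM long, and the 2 DMBA+TAM bars differ in *Pfkm*.

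The genes most like each of the 10 across the libraries were found among 63 genes of the pathway lists by Pearson correlation of log2 CPM over 10 libraries, which share 5 groups and so are not independent points. *Slc2a1* was most like *Hk1* (r = 0.98 over 10 libraries and 0.99 over the 8 without DMBA+TAM), *Pfkp* and *Ldha* both like *Mxi1* (0.99 and 0.98, then 0.97 and 0.96), and *Pgk1* like *Slc2a2* (0.95 and 0.96), which had 0 to 6 counts in each of the 8 libraries other than control, so that this r contrasts the control libraries with the rest. Over the 8 libraries *Slc2a1*, *Hk1*, *Pfkp*, *Ldha* and *Mxi1* each separated control and TAM short from DMBA and TAM long. *Hk1* had 18.3 to 23.2 CPM in control and TAM short and 136 to 212 in DMBA and TAM long. For *Mxi1* these ranges were 126 to 169 and 51.6 to 75.6. The r values of these pairs over the 8 thus largely contrast the S with the L libraries. *Hk2* was most like *Aldoc* (0.81 and 0.77), *Ankrd37* like *Cited2* (0.75 and 0.67) and *Vegfa* like *Arnt* (0.82 and 0.65). The likeness of *Bnip3* to *Hmox1* (0.96), *Adm* to *Lox* (0.94) and *Car9* to *Tfrc* (0.95) was lower without DMBA+TAM (0.46, 0.64 and 0.54). Among the 10 themselves *Pfkp* and *Ldha* went most closely together (0.97, and 0.95 over the 8), and *Bnip3* and *Adm* had r = 0.89 over 10 libraries and 0.27 over the 8.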

How the data were processed

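RNA was poly-A selected and libraries were made with NEBNext Ultra. Per the labels and submitters' processing notes, the authors mapped reads with TopHat 2.0.12 to GRCm38.p6 and counted reads per gene with HTSeq 0.6.1, and they deposited 1 table with raw counts and FPKM of the 10 libraries. The FPKM values deposited by the authors imply other gene lengths than the listed ones, so levels between genes use CPM per kb of listed length. Columns with the authors' own comparisons (fold changes and p-values) and their group means were not used. Of 47074 lines, 5 held no counts and were left out.

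The tests used edgeR 4.0.16 (R 4.3.3) on the counts, with filterByExpr, TMM factors (0.832 to 1.192), a quasi-likelihood fit with 5 group means over all 10 libraries, and Benjamini-Hochberg adjustment over 16179 genes with a threshold of 0.05. The SE given with a log2 fold change is its size divided by the square root of the F statistic of its test. It was worked back from the test and is not a fitted standard error. A fold against a group with 3 counts or fewer in each library is a lower bound from a floor of 3 counts per library; floors cover counting error only. Alternatives were DESeq2 1.42.0, library size only, no filter, a fit of only the 2 groups in question, the replicate block, counts thinned to 1592366, limma 3.58.1 on log2(FPKM + 1) and log2(FPKM + 0.1), a minimum of 1 for the size of the log2 fold change, and leaving out each library. The count fits were tested on simulated data in which few genes changed, in both directions. That test does not cover comparisons in which a large share of all genes was called, as in DMBA+TAM. TMM moved the median of all genes: in DMBA+TAM against control it was -0.168, and 0.312 with library size only.

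The 10 genes and all lists were chosen with earlier results of these data known. Named genes are the 10 genes, the 10 oxygen-sensing genes, the 3 largest rises and 3 largest falls per pathway list among called genes averaging 50 counts or more, in DMBA+TAM and TAM long against control, the most alike gene of each of the 10, and their isoforms; the other named genes were chosen after their values were seen, and a few genes that the rule names are not reported here. Promoter sequences are from RefSeq (GRCm38.p6); of 12 windows, 9 matched a GENCODE M21 transcript on the stated strand and 0 on the opposite one.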

Additional observations from a re-analysis of the deposited data

Results flagged for a closer look

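*Slc2a1*, *Pfkp* and *Ldha* differed between TAM long and TAM short. Both sets are compared with the same control libraries, so the difference of their fold changes is TAM long against TAM short itself and measures no response to tamoxifen apart from other differences between the sets. The difference of the log2 fold changes was 2.74 for *Slc2a1*, -1.51 for *Pfkp* and -0.62 for *Ldha*, and that of *Ldha* was lost with library size alone (-0.39, adjusted p = 0.0532 by edgeR), with limma on log2(FPKM + 0.1) and without TAM short replicate 1 or TAM long replicate 2. In each of these genes TAM long lay close to DMBA and TAM short close to control, as the last letter of the library names (NL and DSS_L against NS and DSS_S) and the small intestine and colon markers also divide them, and treatment and gut segment cannot be told apart here.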

How the results depend on the processing

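Of 1080 fold changes of the 10 genes under other settings, 972 kept their direction and their side of the threshold, 42 lost the call, 24 gained one and 42 turned. Of those that turned, 39 were not called in the first place. The other 3 were *Pgk1* in DMBA+TAM against TAM short, -0.40 as reported and 0.01 with library size only, 0.00 with limma on log2(FPKM + 1) and 0.00 on log2(FPKM + 0.1). In the same order of settings, *Bnip3* in DMBA against control went to 0.27, 0.28 and 0.29 (0.07 thinned), *Vegfa* in TAM long against control to 0.15, 0.15 and 0.15, *Ankrd37* in DMBA+TAM against control to 0.42, 0.35 and 0.43 (0.02 with only the 2 groups), *Pgk1* in DMBA+TAM against DMBA to 0.08, 0.08 and 0.08, and in TAM long against TAM short *Vegfa* to 0.18, 0.17 and 0.18 and *Pgk1* to 0.05, 0.05 and 0.05. *Adm* in TAM long against DMBA became 0.04 and 0.06 with limma, and in TAM long against TAM short *Adm* was -0.98 and *Car9* -0.14 with thinned counts. Library size alone moved the median of all genes from 0.046 to 0.275 in TAM long against TAM short and from -0.002 to 0.003 in TAM long against DMBA; the median was not computed for the limma and thinned fits, and the cause was not tested.

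With each library left out in turn, values that turned ranged as follows: *Bnip3* from -0.28 to 0.24 in DMBA and from -0.18 to 0.33 in TAM short, *Vegfa* from -0.23 to 0.01 in TAM short and *Ankrd37* from -0.47 to 0.36 in DMBA+TAM, all against control; *Pgk1* from -0.25 to 0.00 in DMBA+TAM against DMBA; *Hk2* from -0.66 to 0.18, *Pgk1* from -0.03 to 0.25, *Adm* from -0.50 to 0.60 and *Ankrd37* from -0.29 to 1.00 in TAM long against DMBA; and *Vegfa* from -0.12 to 0.00 and *Car9* from -0.06 to 0.11 in TAM long against TAM short. A group left with 1 library is assumed to vary like the others.

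Of the counts of the 10 genes, those lower in DMBA went from 4 to 2, those lower in TAM long from 3 to 1, those lower in TAM short from 1 to 0 and those higher in DMBA+TAM from 5 to 3, all against control, when a log2 fold change of 1 was asked for. Library size only gave 5 higher in TAM long against control. For TAM short against control 4 were higher with no filter and with only the 2 groups, 1 with thinned counts and 1 with any library left out, and 0 to 1 were lower with a library left out. Leaving out a library gave 3 to 4 higher in DMBA+TAM against control, 0 to 1 higher in TAM long against DMBA and 1 to 3 lower in TAM long against TAM short. TAM long against DMBA had 1 higher with DESeq2 and 2 with no filter. TAM long against TAM short had 1 lower with library size only, with limma on log2(FPKM + 0.1) and at a log2 fold change of 1. In that comparison *Hk2* gained a call as lower with no filter and with only the 2 groups.

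Over all genes, calls in DMBA against control were 7735, and 4832 thinned or 4395 at a log2 fold change of 1. In TAM long against control they were 7444, then 4591, 4221 and 4946 without control replicate 2. In TAM short against control they were 2317, then 1260 and 1172, with 4317 for only the 2 groups and 669 to 1057 with a library left out. In TAM long against DMBA they were 437, then 202 and 221, with 858 by DESeq2, 1615 with no filter, 29 for only the 2 groups, 290 and 199 by limma and 58 to 1036 with a library left out. In TAM long against TAM short they were 6835, then 3997 and 3919, with 4258 to 5017 with a library left out.

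With the replicate number as a block, 88 of the 90 fold changes of the 10 genes stayed as they were and 2 gained a call, *Car9* in DMBA against control and *Hk2* in TAM long against TAM short, so that the genes lower in these comparisons numbered 5 and 3. Over 10 pairs of groups, deviations of equal replicate numbers correlated at 0.26 between DMBA and TAM long and at -0.041 to 0.087 between the others. The numbers were not taken to pair the samples, and whether the libraries of DMBA and TAM long share a shift by replicate was not tested. With 6 and 9 counts of *Car9* and 5 and 8 of *Ankrd37* in DMBA+TAM, depth limits both genes there.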
